A study of Mus musculus with 9 samples.

Results

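The immediate early genes were followed in RNA of the mouse hippocampus through 10 members chosen by gene symbol: Fos, Fosb, Junb, Arc, Egr1, Egr2, Egr4, Npas4, Nr4a1 and Ier2. All 10 were found among the 54532 genes listed in each deposited table. The labels describe male C57BL/6 mice, bought at 6 to 8 weeks of age and kept in pairs, in 3 groups of 3 hippocampal samples. The Con mice ate a standard diet, and their labels call the genotype WT. HMD mice ate a high-methionine diet for 8 weeks, a diet that feeds the methionine and homocysteine cycle. The Bet+HMD mice ate the same diet for 8 weeks and then had betaine (2.5% w/v), a methyl donor, in their drinking water for 2 weeks. Whether all groups were taken at the same age is not stated. The labels name no allele or transgene, and the strain field of the Bet+HMD samples reads C57BL/6, C57BL/7 and C57BL/8. The study's methods call the mice female, whereas the Y-linked gene Ddx3y lay between 12.7 and 21.2 FPKM and Xist at or below 0.0449 FPKM in the 9 libraries.

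Immediate early genes are transcribed within minutes of strong synaptic input, without the need for new protein. Calcium entry and the kinases behind it act on factors that already sit at the promoters, among them CREB, serum response factor with its ELK partners, and MEF2. Most of the products are themselves transcription factors that switch on later genes, while Arc acts directly at the synapse. Their transcripts are short-lived, and in the hippocampus they are widely used as markers of neurons that were recently active.

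Values were FPKM, in which fragments are divided by the length of the gene and the size of the library, so levels are compared between genes per length. An earlier table held the Con and HMD libraries, and a later one held the same libraries again beside Bet+HMD. Across the 60 member values present in both, the later value differed from the earlier one by -4.76% to 6.92%. Each library held 16031464 to 18566712 reads assigned to genes. The library size behind the FPKM was not exactly this total. In the later table it was 0.953 to 1.03 times the assigned reads in Con and 0.956 to 1.01 times in HMD. For Bet+HMD it was 1.04 to 1.05 times, so a scaling that differs between libraries is part of the values. Its effect on the comparisons was not tested by itself. The Bet+HMD libraries stood apart from the others. Between 25315 and 25663 genes had a read in them, against 20816 to 23272 in the Con and HMD libraries of the same table, and they differed little from each other (chi-square per degree of freedom 3.00 to 4.21 between replicates, against 11.8 to 42.2 within Con and HMD). Bet+HMD occurs in the later table only, so betaine and whatever else set these libraries apart cannot be told apart. Whether the 3 samples of a group came from separate cages is not stated, and p-values measure only the spread between these samples.

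Promoter sequence is shown because CREB and serum response factor, the factors that start these genes, read short motifs near the start site. RefSeq starts on GRCm38.p6 were at hand for 7 of the 10 members, with 11 starts in all, and Arc, Egr1 and Ier2 are named only. The 250 bases before each start were searched on both strands. TGACG, the core of the cAMP response element that CREB binds, was present before 9 of the 11 starts and before at least 1 start of 7 of 7 members, against 17.8% of 32851 promoters of the same length. The windows of the Egr2 starts overlap and share bases. In the lines below, written 5′ to 3′ on the strand of the gene, capitals mark TGACG or its reverse complement, except for Egr2, where they mark the CArG box read by serum response factor.
Fos, chr12:85473640-85473889, + strand: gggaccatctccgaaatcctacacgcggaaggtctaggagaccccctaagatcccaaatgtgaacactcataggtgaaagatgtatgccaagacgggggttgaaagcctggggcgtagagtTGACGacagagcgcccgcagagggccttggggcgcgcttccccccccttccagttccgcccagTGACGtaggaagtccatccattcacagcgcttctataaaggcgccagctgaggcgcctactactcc
Junb, chr8:84978749-84978998, − strand: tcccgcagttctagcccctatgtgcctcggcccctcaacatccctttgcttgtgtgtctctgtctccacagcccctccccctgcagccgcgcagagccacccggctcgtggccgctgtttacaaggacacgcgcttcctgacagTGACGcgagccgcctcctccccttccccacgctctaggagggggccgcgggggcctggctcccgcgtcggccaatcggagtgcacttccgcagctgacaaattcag
Egr4, chr6:85513590-85513839, − strand: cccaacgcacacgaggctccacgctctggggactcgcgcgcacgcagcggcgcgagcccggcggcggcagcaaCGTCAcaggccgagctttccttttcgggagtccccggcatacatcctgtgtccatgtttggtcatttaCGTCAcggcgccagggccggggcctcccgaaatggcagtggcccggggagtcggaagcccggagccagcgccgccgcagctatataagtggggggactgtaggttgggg
Egr2, chr10:67537484-67537513, + strand: cggatcttctCCTTTTTTGGaaagtctcgg
Npas4, chr19:4990128-4990157, − strand: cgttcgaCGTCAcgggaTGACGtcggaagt
Nr4a1, chr15:101266596-101266845, + strand: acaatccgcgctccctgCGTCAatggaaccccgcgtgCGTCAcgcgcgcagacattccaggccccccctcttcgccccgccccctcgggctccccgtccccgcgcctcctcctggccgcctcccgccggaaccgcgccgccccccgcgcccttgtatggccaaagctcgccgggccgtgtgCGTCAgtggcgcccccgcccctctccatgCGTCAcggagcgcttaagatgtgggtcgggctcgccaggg
Nr4a1 held 4 copies, which 0.137% of all promoters reached. In Fos the copies began 129 and 66 bases before the start, in Egr4 177 and 109 bases before it, and in Npas4 179 and 169 bases before it. The full element TGACGTCA, which contains TGACG, was in none of the member windows and in 1.55% of all promoters. A CArG box was found for Egr2 alone (1.47% of all promoters), GCGNGGGCG, the site that EGR proteins bind (N is any base), for Fosb and Nr4a1 (4.7%), and TATAAA for Fos (12.4%). Only exact matches within the 250 bases were counted. Sites further away or with a changed base would be missed, so a gene without a match may still hold the site. The window of Nr4a1 and the stretch of Egr2 lie inside an intron of longer annotated transcripts, and the stretch of Npas4 lies in the 5′ exon of one. Those of Fos, Junb and Egr4 lie upstream of the annotated gene. These matches describe the sequence, and binding was not measured.

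Members are described by role, with gene positions on GRCm38 and values from the later table, each group in the order of its replicate numbers. The AP-1 genes encode leucine zipper proteins that pair as dimers, FOS or FOSB with a JUN protein. Fos (ENSMUSG00000021250, chr12:85473890-85477273, + strand) was measured at 16.5, 8.26 and 8.68 FPKM in the Con libraries, 5.48, 6.13 and 5.36 FPKM in the HMD libraries and 4.23, 4.33 and 4.37 FPKM in the Bet+HMD libraries. The lowest Con library lay above the highest HMD library, and the highest Bet+HMD library lay below the lowest HMD library, so the groups did not overlap in any pair. Fosb (ENSMUSG00000003545, chr7:19302696-19310051, − strand), a close relative with a longer-lived spliced form, was measured at 2.80, 2.03 and 1.47 FPKM in the Con libraries, 1.41, 1.78 and 2.04 FPKM in the HMD libraries and 1.60, 1.29 and 1.16 FPKM in the Bet+HMD libraries. The ranges of Fosb overlapped between all groups. Junb (ENSMUSG00000052837, chr8:84974484-84978718, − strand) was measured at 26.5, 14.1 and 25.2 FPKM in the Con libraries, 9.85, 9.78 and 20.8 FPKM in the HMD libraries and 16.6, 14.8 and 14.2 FPKM in the Bet+HMD libraries. The second Con library and the third HMD library crossed, which made the groups overlap. The gene model of Junb shares 351 bases with Prdx2 on the other strand, 173 of them in exons of both. Whether the counting used strand is not stated, so the Junb values are uncertain by the reads in that stretch. The other 9 members overlap no annotated gene.

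The EGR genes encode zinc finger factors. Egr1 (ENSMUSG00000038418, chr18:34859823-34864984, + strand), needed for the lasting phase of long-term potentiation, was measured at 51.8, 40.0 and 25.0 FPKM in the Con libraries, 19.8, 26.9 and 36.1 FPKM in the HMD libraries and 32.1, 33.2 and 32.8 FPKM in the Bet+HMD libraries. The Bet+HMD libraries fell inside the range of the other groups. Egr4 (ENSMUSG00000071341, chr6:85511121-85513589, − strand) was measured at 22.9, 10.9 and 9.74 FPKM in the Con libraries, 7.82, 6.02 and 17.1 FPKM in the HMD libraries and 5.87, 6.97 and 6.39 FPKM in the Bet+HMD libraries, and here the first Con library and the third HMD library each stood well above the rest of their groups. Egr2 (ENSMUSG00000037868, chr10:67535475-67542188, + strand) was the member with the fewest reads. Its values were 4.15, 2.22 and 1.19 FPKM in the Con libraries, 0.288, 0.768 and 0.993 FPKM in the HMD libraries and 0.864, 1.05 and 0.896 FPKM in the Bet+HMD libraries, resting on 69 to 255 reads in Con, 17 to 57 in HMD and 51 to 63 in Bet+HMD. Every HMD and Bet+HMD library lay below every Con library for Egr2.

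Npas4 (ENSMUSG00000045903, chr19:4984355-4989971, − strand), a factor that responds to calcium entry in neurons and promotes inhibitory synapses, was measured at 5.21, 3.95 and 4.01 FPKM in the Con libraries, 2.30, 1.49 and 2.64 FPKM in the HMD libraries and 3.64, 3.40 and 3.98 FPKM in the Bet+HMD libraries. All HMD libraries lay below all others, while Con and Bet+HMD overlapped. Nr4a1 (ENSMUSG00000023034, chr15:101254269-101274795, + strand), an orphan nuclear receptor, was measured at 24.9, 17.0 and 17.3 FPKM in the Con libraries, 9.05, 10.1 and 16.6 FPKM in the HMD libraries and 18.2, 18.3 and 18.5 FPKM in the Bet+HMD libraries. The HMD libraries again lay below all others, and the Bet+HMD libraries lay within 1.01 times of each other. Arc (ENSMUSG00000022602, chr15:74669083-74672570, − strand), which encodes a cytoskeletal protein of dendrites that drives removal of AMPA receptors from synapses, was measured at 69.9, 46.5 and 40.4 FPKM in the Con libraries, 20.0, 21.5 and 39.2 FPKM in the HMD libraries and 32.3, 33.7 and 29.1 FPKM in the Bet+HMD libraries. All Con libraries lay above all HMD and Bet+HMD libraries. Ier2 (ENSMUSG00000053560, chr8:84661331-84662852, − strand), a nuclear protein gene of the immediate early response family, was measured at 7.70, 5.92 and 4.34 FPKM in the Con libraries, 4.12, 4.20 and 5.99 FPKM in the HMD libraries and 2.42, 3.19 and 2.42 FPKM in the Bet+HMD libraries. The Bet+HMD libraries were below all others, and Con and HMD overlapped.

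**Figure D1:**
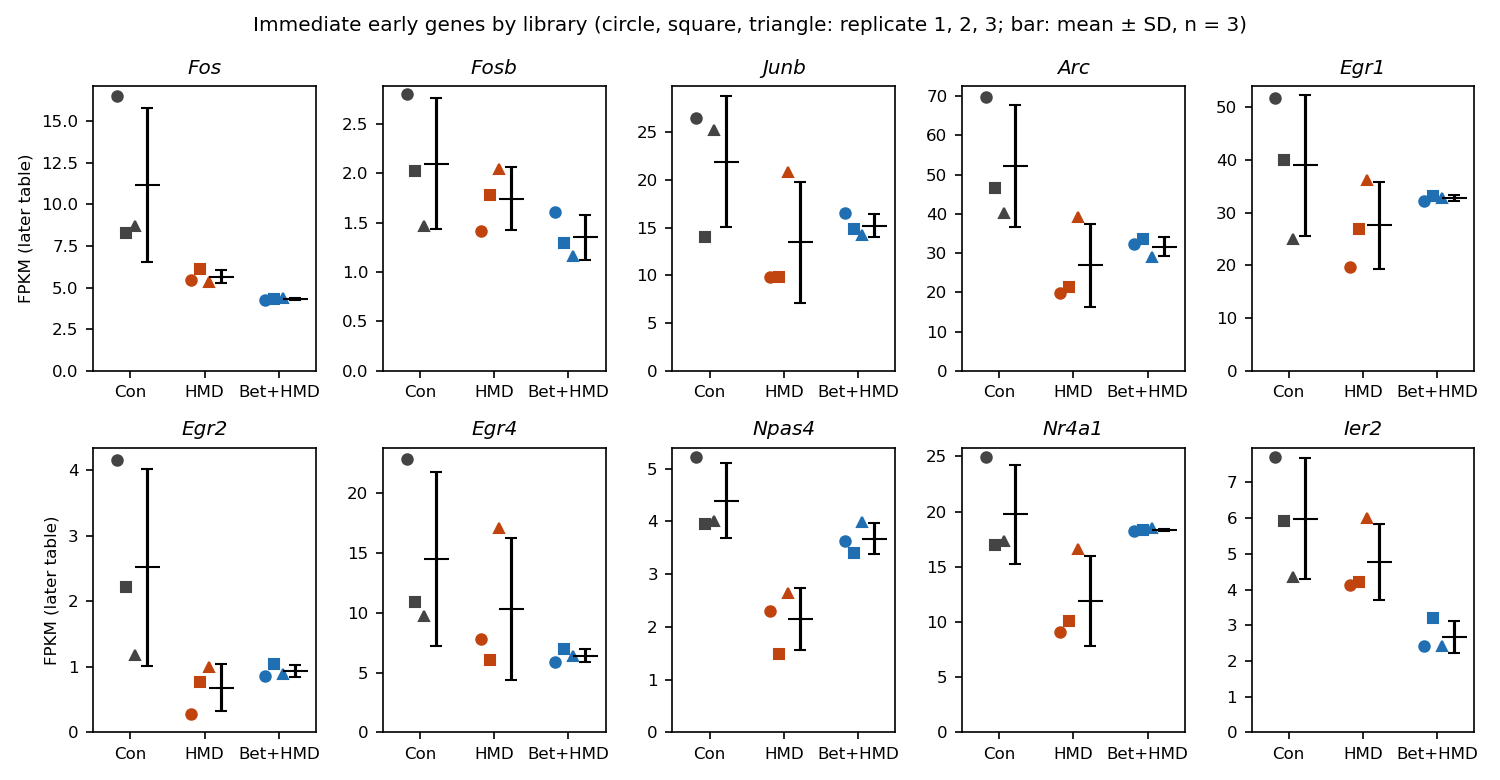
FPKM of each immediate early gene in the 9 libraries of the later table (points, shaped by replicate number) with the mean and SD of the 3 libraries of each group (bars), on linear axes that start at 0. Con had the highest mean for all 10 genes, and Bet+HMD lay between Con and HMD for 6 of them.

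The order of the group means was Con, Bet+HMD, HMD for 6 members (Junb, Arc, Egr1, Egr2, Npas4 and Nr4a1) and Con, HMD, Bet+HMD for the remaining 4 (Fos, Fosb, Egr4 and Ier2). Neighbours in this order often overlapped, as the single values show. Per length, Arc had the highest mean of the members in Con (52.3 ± 15.6 FPKM, SD, n = 3), followed by Egr1 (38.9 ± 13.4 FPKM). In HMD their means were 26.9 ± 10.7 FPKM for Arc and 27.6 ± 8.20 FPKM for Egr1, a difference within the SD.

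The comparison of HMD with Con asks what the diet did, and was made in the earlier table. All 10 members had a lower mean in HMD, by 18.5% (Ier2) to 73.3% (Egr2), with a median of 38.5%. No member passed the test. limma called 0 of 12989 genes (0%) at an adjusted p under 0.05, 592 of them having an unadjusted p under 0.05, and voom on recovered reads also called 0, with 567 at that level. In the 5 members Arc, Nr4a1, Fos, Npas4 and Egr2 every HMD library lay below every Con library, which 4.66% of all genes tested did. The same 5 had an unadjusted p under 0.05, against 2.19% of all genes that were lower at that level. That count was 3 without HMD replicate 1 and 7 without HMD replicate 3, and between 4 and 6 without any other library. The median log2 fold change over the 10 members was -0.69, and over all genes tested it was -0.0038. The members were chosen with earlier results of these data known, so these values describe the 10 genes only.

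Npas4 had the smallest p of the members. Its earlier-table values were 5.13, 3.98 and 3.90 FPKM in Con and 2.28, 1.42 and 2.54 FPKM in HMD, with means of 4.33 ± 0.690 and 2.08 ± 0.587 FPKM. The log2 fold change was -0.80 (SE 0.175, unadjusted p = 0.00207, adjusted p = 0.726) by limma. Arc had means of 51.4 ± 15.5 and 26.5 ± 10.4 FPKM, and limma gave -0.95 (SE 0.290, unadjusted p = 0.0121, adjusted p = 0.943) on the log2 scale. For Fos the means were 11.0 ± 4.62 and 5.66 ± 0.425 FPKM, and the fold change was -0.78 (SE 0.239, unadjusted p = 0.0122, adjusted p = 0.943). Egr2 had the lowest ratio of all members, with means of 2.45 ± 1.47 and 0.653 ± 0.352 FPKM and a fold change of -0.997 (SE 0.316, unadjusted p = 0.0145, adjusted p = 0.980). The fold change of Nr4a1 was -0.68 (SE 0.239, unadjusted p = 0.0229, adjusted p = 0.980). Junb, Egr1, Egr4, Ier2 and Fosb had log2 fold changes of -0.70, -0.46, -0.46, -0.23 and -0.18, each with an unadjusted p above 0.05. Log2 fold changes are on the scale of FPKM + 1, which understates the change of low genes such as Egr2.

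The direction was negative for every member under each of the alternatives in which it was tested, the scalings included, and no alternative called a member. The spread within groups was wide. Con replicate 1 was the highest Con library for 10 of 10 members, and HMD replicate 3 was the highest HMD library for 9 of 10, the exception being Fos. Without Con replicate 1 the log2 fold changes of Egr4, Egr1, Ier2 and Fosb moved to -0.10, -0.22, -0.06 and -0.01, and that of Fos to -0.48. Without Con replicate 3 those of Egr1, Ier2 and Fosb moved to -0.74, -0.42 and -0.34. Without HMD replicate 1 they moved to -0.25, -0.14 and -0.09, and without HMD replicate 3 those of Egr4 and Ier2 moved to -0.85 and -0.37. Without HMD replicate 2 that of Egr4 was -0.18. In a bulk sample, fewer cells of a type and less RNA per cell cannot be told apart.

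**Figure D2:**
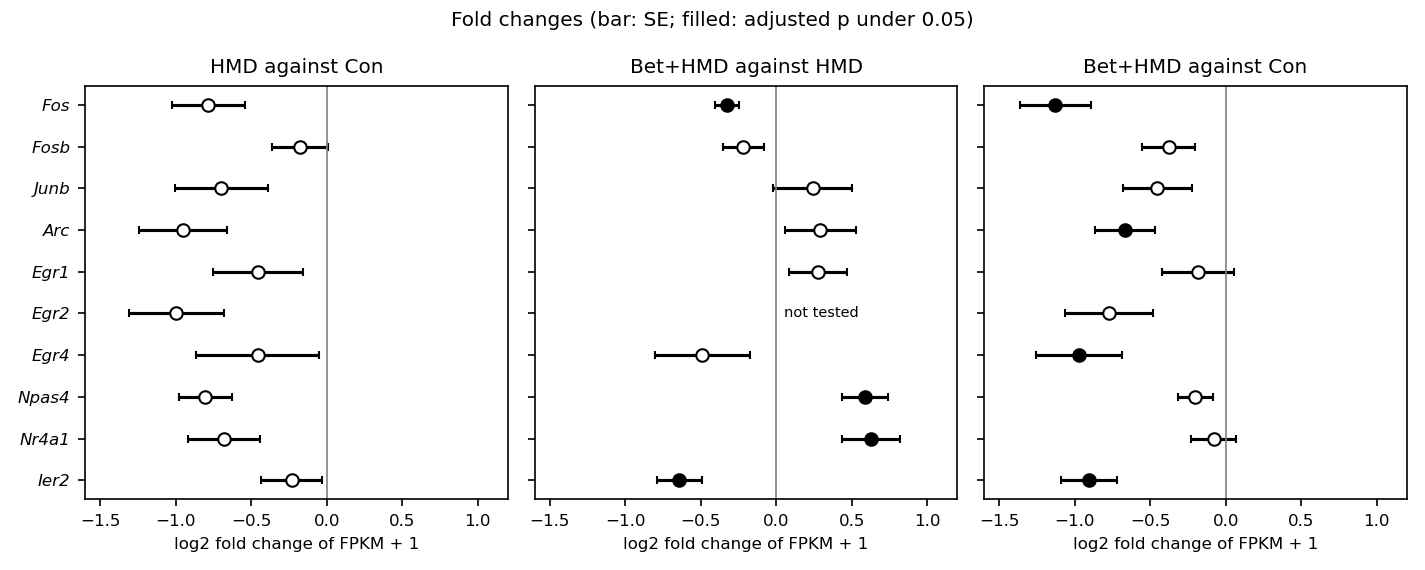
Log2 fold change of FPKM + 1 with its SE for each immediate early gene by limma, HMD against Con in the earlier table and the other comparisons in the later one, filled where the adjusted p was under 0.05. No gene is filled in HMD against Con, 4 are filled in each of the others, and Egr2 was not tested in Bet+HMD against HMD.

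Bet+HMD was compared with HMD, a contrast that holds betaine, the 2 weeks in which it was given and whatever else set the Bet+HMD libraries apart. Of the 9 members tested, 2 rose and 2 fell. Nr4a1 rose by 0.63 on the log2 scale (SE 0.194, adjusted p = 0.0324 by limma), from 11.9 ± 4.07 to 18.3 ± 0.128 FPKM. Npas4 rose as well, between means of 2.14 ± 0.588 and 3.67 ± 0.292 FPKM, which limma put at 0.59 (SE 0.149, adjusted p = 0.0153) on the log2 scale. Fos fell from 5.66 ± 0.414 to 4.31 ± 0.0700 FPKM, with -0.32 (SE 0.0777, adjusted p = 0.0120) on the log2 scale. Ier2 fell from 4.77 ± 1.06 to 2.68 ± 0.448 FPKM, or -0.64 (SE 0.150, adjusted p = 0.0107) on that scale. In these 4 the libraries of the groups did not overlap.

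The background was high in this comparison. Of 13672 genes tested, 22.8% were called higher and 25.5% lower, and the groups did not overlap for 28.3% (higher) and 31.8% (lower), so 2 of 9 in either direction was near the share over all genes. Arc, Egr1 and Junb had higher means with log2 fold changes of 0.29 (SE 0.233, adjusted p = 0.334), 0.28 (SE 0.190, adjusted p = 0.263) and 0.24 (SE 0.262, adjusted p = 0.475). Egr4 and Fosb had lower means with -0.49 (SE 0.316, adjusted p = 0.238) and -0.22 (SE 0.135, adjusted p = 0.219). Egr2 was under the filter of a mean of 1 FPKM. Without that filter its log2 fold change was 0.22. The directions of the 9 members were the same under every alternative. The calls were less steady. Nr4a1 was called in 10 of 16 alternatives, with an adjusted p of at most 0.0942 in the others, which were no filter and leaving out any 1 library but HMD replicate 3. Without HMD replicate 3, in which most members were high, 7 of 9 members were called, Arc, Egr1 and Junb among the higher ones. In that setting 48.9% of all genes were called. Rescaling to TPM moved the median of all genes from -0.03 to 0.16 and the calls from 3118 higher and 3489 lower to 4496 higher and 1974 lower. Under quantile normalization 6 of 9 members were called, with Egr1 (log2 fold change 0.51, adjusted p = 0.0462) and Fosb (-0.45, adjusted p = 0.0294) added. There 47% of all genes were called. Relative to the median of all genes, that of the members was 0.27 as deposited, 0.30 in TPM and 0.41 under quantile normalization, and the members' own median of 0.24 moved to 0.07 without HMD replicate 1, 0.07 without HMD replicate 2 and 0.49 without HMD replicate 3. Fos was not called in TPM (log2 fold change -0.18, adjusted p = 0.136), with all 3 groups in one fit (adjusted p = 0.241) or without Bet+HMD replicate 1 (adjusted p = 0.0517). Npas4 was not called without Bet+HMD replicate 3 (adjusted p = 0.0592).

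Bet+HMD was also set against Con, to see how the mice given betaine compared with mice on the standard diet. Both comparisons of Bet+HMD use the same 3 libraries, and HMD against Con and Bet+HMD against HMD draw on the same HMD mice, so the comparisons are not independent. All 10 members had a lower mean in Bet+HMD, though Egr1 and Nr4a1 turned above 0 in TPM (0.03 and 0.14), under quantile normalization (0.06 and 0.10) and without Con replicate 1. The test called 4 members lower. Fos fell from 11.1 ± 4.63 to 4.31 ± 0.0700 FPKM, with -1.13 (SE 0.236, adjusted p = 0.00979) on the log2 scale. The fold change of Ier2 was -0.90 (SE 0.187, adjusted p = 0.00936), that of Egr4 -0.97 (SE 0.288, adjusted p = 0.0347) and that of Arc -0.67 (SE 0.197, adjusted p = 0.0340). Of 13643 genes tested, 20.4% were called lower, and 29% had every Bet+HMD library below every Con library, as 5 members did (the 4 called and Egr2). The median log2 fold change of the members was -0.56 and that of all genes -0.04.

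The remaining members did not pass the test against Con. On the log2 scale the fold changes were -0.08 (SE 0.148, adjusted p = 0.696) for Nr4a1 and -0.20 (SE 0.116, adjusted p = 0.207) for Npas4. These are the genes that were called higher against HMD. Egr1, Fosb, Junb and Egr2 had -0.19 (SE 0.238, adjusted p = 0.570), -0.38 (SE 0.176, adjusted p = 0.129), -0.45 (SE 0.228, adjusted p = 0.157) and -0.77 (SE 0.290, adjusted p = 0.0719). Fos and Ier2 were called under every alternative in which they were tested, whereas Arc was called in 9 of 16 and Egr4 in 10 of 16. Both lost the call without any 1 of the Bet+HMD libraries, without a filter, in TPM and with all 3 groups in one fit. Under quantile normalization Arc lost it too (log2 fold change -0.39, adjusted p = 0.148), while Fosb (adjusted p = 0.0342) and Egr2 (adjusted p = 0.0293) were called. Without Con replicate 3, 7 members were called, where 45.6% of all genes were. Without Con replicate 1 the median over the members moved from -0.56 to -0.37. Rescaling to TPM moved the median of all genes from -0.04 to 0.17 and the calls from 2645 higher and 2777 lower to 3980 higher and 1432 lower, and the median of the members relative to it was -0.52 as deposited and -0.56 in TPM.

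Most members were high or low in the same libraries. Their summed FPKM was 232, 151 and 137 in Con, 80.0, 88.7 and 147 in HMD and 118, 120.3 and 114 in Bet+HMD. The mean deviation of the members from their group mean was 0.44 in Con replicate 1 and 0.38 in HMD replicate 3 on the log2 scale, and between -0.29 and -0.15 in the other Con and HMD libraries. In Bet+HMD it stayed between -0.03 and 0.04. The coefficient of variation between replicates had a median over members of 31.5% in Con, 32.0% in HMD and 8.00% in Bet+HMD, where all genes had medians of 15.2%, 12.9% and 6.67%. For 4 members the spread in Bet+HMD was below the counting error of their reads. Fos differed from the others in HMD, where it was lowest in replicate 3 and had a coefficient of variation of 7.32%.

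**Figure D3:**
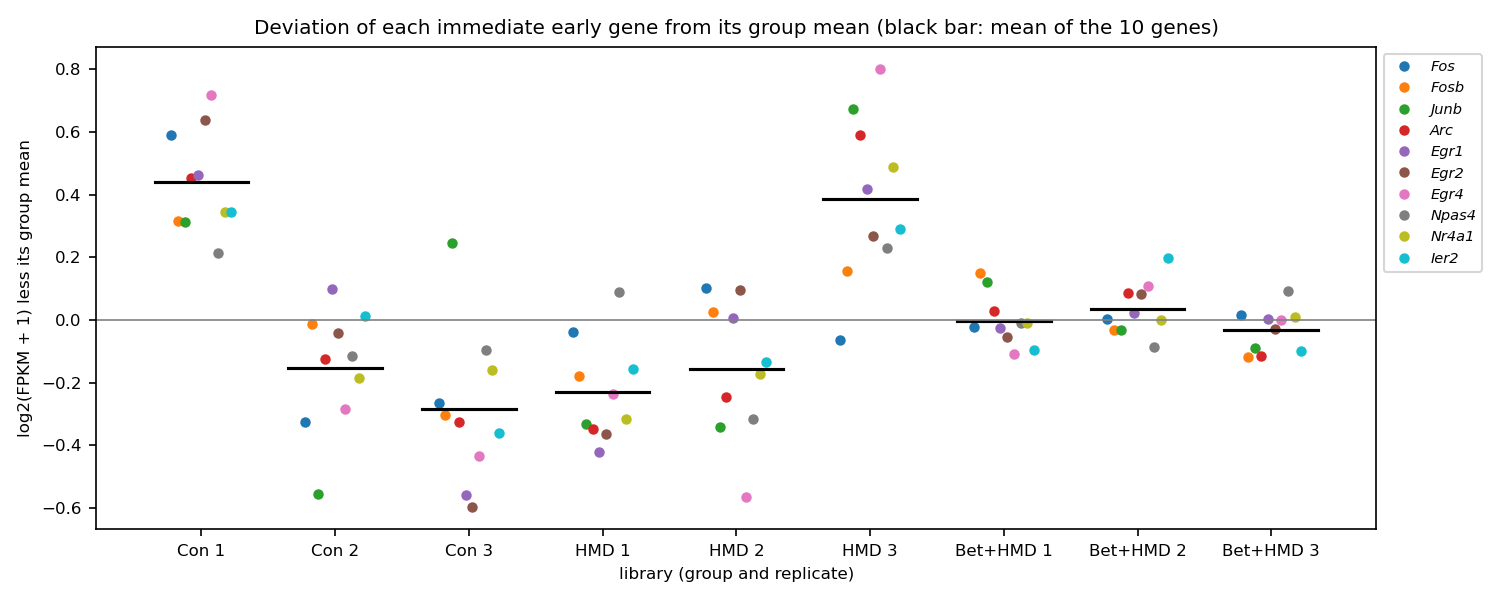
Deviation of log2(FPKM + 1) from its group mean for each immediate early gene (coloured points) in the 9 libraries of the later table, with the mean over the 10 genes (black bars). Con replicate 1 and HMD replicate 3 lie above 0, at 0.44 and 0.38, and the Bet+HMD libraries lie within 0.04 of it.

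Genes outside the list were ranked by how closely they followed that mean deviation over the 9 libraries (Pearson's r, a description across libraries that share depth and composition). The Bet+HMD libraries deviated by so little that r rests mainly on Con and HMD, and the members make up the mean, so their own r is partly built in and is not given. Of 13464 genes, members included, 126 (0.936%) had r above 0.9. The 8 non-members with the highest r were Grik5, a kainate receptor subunit (r = 0.989), Khsrp, an RNA-binding protein, Ltbp4, Adra2a, the alpha-2A adrenergic receptor, Rhof, the transcriptional repressor Bcl6, the unnamed gene model Gm37353 and Sez6 (r = 0.979). Grik5 had 49.8, 38.7 and 33.7 FPKM in Con and 37.6, 38.7 and 51.6 FPKM in HMD, so that it was high in the same libraries as the members.

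The wider pathway was read from lists of genes that rise in the same early wave, of later targets, of the signalling that reaches the promoters, and of corepressor and feedback genes. The lists share genes, so their counts are not independent. In the last list Mef2c is also a signalling gene and Crem also a delayed gene. Dusp1, Dusp6, Sik1 and Zfp36 are also among the rapid primary response genes. Of the lists given further below, the glucocorticoid-induced genes share Per1 with the rapid primary response genes. The striatal markers share Penk with the delayed genes. Of 32 other rapid primary response genes tested in HMD against Con, 0 passed, 24 had a negative fold change, and the median was -0.13. An unadjusted p under 0.05 was reached by 5 of them that were lower and 1 that was higher. Btg2, an antiproliferative cofactor, had 11.1 ± 2.53 and 6.49 ± 0.874 FPKM in Con and HMD (adjusted p = 0.899 by limma). Fosl2, an AP-1 relative of Fos, had 6.36 ± 0.636 and 4.50 ± 0.586 FPKM, and Gadd45b, which acts in DNA demethylation, had 8.87 ± 0.645 and 6.40 ± 1.29 FPKM. Maff, a small leucine zipper factor, had 0.707 ± 0.0465 and 1.39 ± 0.204 FPKM and was the higher one.

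Later targets and upstream signalling had medians near that of all genes. Of 21 delayed response and effector genes, 0 passed and 12 had a negative fold change (median -0.03). Bdnf, the neurotrophin, had 8.45 ± 0.218 and 6.22 ± 1.59 FPKM in Con and HMD, and Cort, the interneuron peptide cortistatin, had 4.99 ± 0.858 and 3.00 ± 1.08 FPKM. Penk, the precursor of enkephalin, had 8.58 ± 1.89 and 16.2 ± 3.74 FPKM, and Nptx2, which clusters AMPA receptors, had 9.76 ± 1.34 and 14.4 ± 1.62 FPKM. Of 38 signalling genes, 0 passed, 26 had a positive fold change (median 0.03), and 1, the kinase gene Camk2d, was at an unadjusted p under 0.05, at 3.12 ± 0.589 and 4.36 ± 0.597 FPKM. Of 8 corepressor and feedback genes, 0 passed (median -0.07), and the phosphatase gene Dusp6 had 19.5 ± 2.49 and 16.3 ± 3.47 FPKM.

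In Bet+HMD against HMD, 14 of the 32 other rapid primary response genes were called, 5 higher and 9 lower, against 48.3% of all genes called in either direction. Nr4a2, a relative of Nr4a1, rose like it, at 12.1 ± 1.05 and 20.3 ± 1.28 FPKM in HMD and Bet+HMD (adjusted p = 0.000728 by limma). Nr4a3, of the same family, did not, with a log2 fold change of -0.10 (adjusted p = 0.535 by limma). Gadd45g fell furthest in the list, at 14.4 ± 2.01 and 4.14 ± 0.208 FPKM (adjusted p = 7.69e-05), and Klf2 and Apold1 fell too, at 8.29 ± 2.74 and 2.85 ± 0.327 FPKM and 3.43 ± 0.344 and 1.51 ± 0.316 FPKM. Among delayed genes 2 of 21 rose and 5 fell, with Nptx2 at 14.6 ± 1.61 and 4.87 ± 0.442 FPKM. Among 38 signalling genes 9 rose and 5 fell. Crtc2, a coactivator of CREB, rose, at 3.61 ± 0.151 and 7.69 ± 0.242 FPKM (adjusted p = 0.000134), and Map2k1, the MEK1 kinase of the ERK pathway, fell, at 110.0 ± 11.2 and 51.8 ± 1.54 FPKM (adjusted p = 0.000162). Of 8 corepressor and feedback genes 1 rose and 2 fell, all of them also counted in another list. Mef2c rose, at 14.0 ± 1.87 and 23.5 ± 0.441 FPKM. Dusp1, a phosphatase that inactivates MAP kinases, fell, at 10.2 ± 0.173 and 6.82 ± 0.846 FPKM. Crem, a CREB relative with repressor forms, fell too, at 2.71 ± 0.476 and 1.79 ± 0.146 FPKM.

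Against Con, 1 of the 32 other rapid primary response genes was called higher in Bet+HMD and 12 lower, where 39.7% of all genes were called in either direction. Gadd45g, at 16.0 ± 3.73 and 4.14 ± 0.208 FPKM in Con and Bet+HMD, and Gadd45b, at 9.09 ± 0.746 and 3.61 ± 0.574 FPKM, were among those that fell (adjusted p = 0.000524 and 0.000705 by limma), and Amigo3, at 0.592 ± 0.119 and 1.67 ± 0.151 FPKM, was the one that rose. Of 21 delayed genes 0 rose and 5 fell, Bdnf among them, at 8.51 ± 0.151 and 5.18 ± 0.261 FPKM (adjusted p = 0.00124). Of 38 signalling genes 12 rose and 3 fell. Of 8 corepressor and feedback genes 1 rose, again Mef2c, and 2 fell, with Dusp1 at 11.5 ± 1.04 and 6.82 ± 0.846 FPKM.

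**Figure D4:**
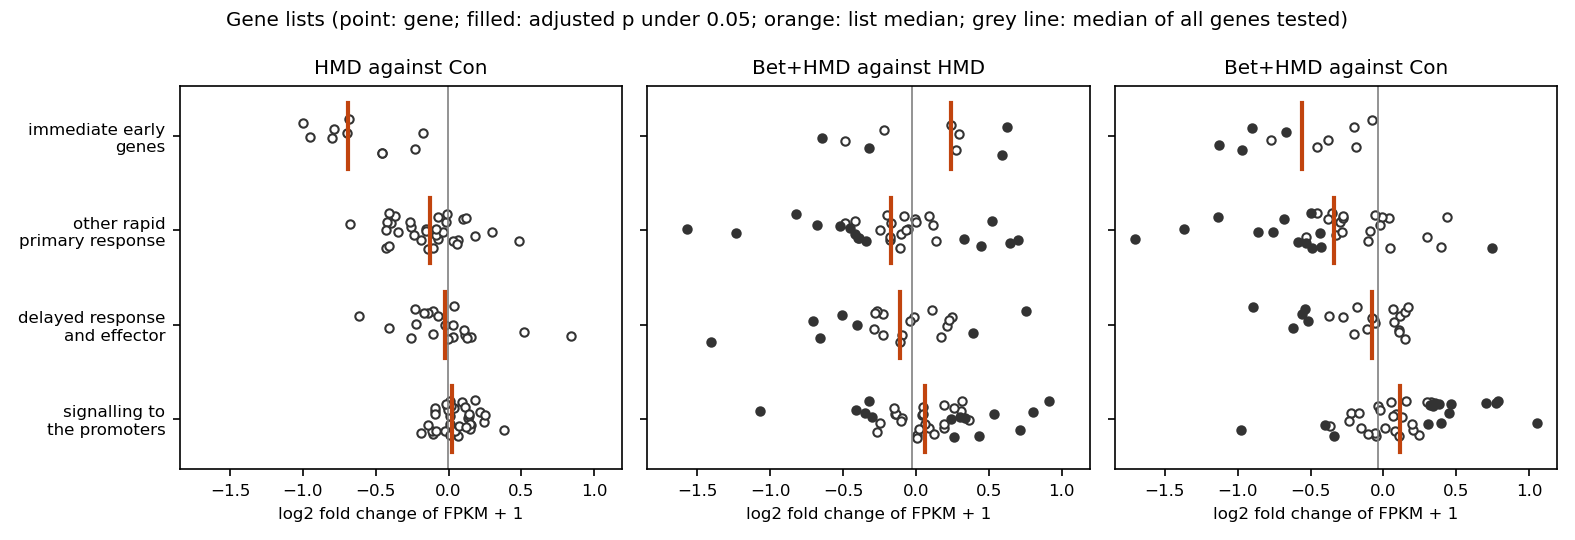
Log2 fold change of FPKM + 1 by limma for the genes of 4 lists (points, spread vertically for legibility), HMD against Con in the earlier table and the others in the later one, filled where the adjusted p was under 0.05, with the list median (orange) and the median of all genes tested (grey). In HMD against Con the immediate early genes have a median of -0.69, against -0.13, -0.03 and 0.03 for the other lists. Members and lists were chosen with earlier results of these data known, and the second list holds Egr3 at 0.10 and Jun at -0.26.

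The 10 genes induced by glucocorticoids had a summed 88.8 to 94.8 FPKM in Con, 137 to 156 FPKM in HMD and 93.8 to 97.5 FPKM in Bet+HMD. In HMD against Con 9 of them were higher at an unadjusted p under 0.05 and 0 passed the test (lowest adjusted p = 0.186 by limma), while 4.56% of all genes had an unadjusted p under 0.05 in either direction. With all 3 groups in one fit, 5 of the 10 were called higher (lowest adjusted p = 0.0219), among 9 genes called in all, and 0 of the members were called there. This list was chosen with earlier results of these data known, so its counts are partly built in and describe these 10 genes only. Cdkn1a, a cell cycle inhibitor, had 3.00 ± 0.103 and 9.02 ± 1.91 FPKM in Con and HMD, and Sgk1, a kinase, had 26.1 ± 2.77 and 49.1 ± 3.66 FPKM. In Bet+HMD against HMD 1 of the 10 rose and 7 fell, where 48.3% of all genes were called. The one that rose was Per1, which is also counted among the rapid primary response genes. Against Con 3 rose and 2 fell, near the 39.7% of all genes called. The 5 called against Con became 2 without Bet+HMD replicate 1 or 2 and with the replicate block, and 3 without Bet+HMD replicate 3. In these settings 24.4% to 28.8% of all genes were called. Markers of the thalamus, which borders the hippocampus, summed to 39.3 to 46.2 FPKM in Con, 64.7 to 142 FPKM in HMD and 40.3 to 41.6 FPKM in Bet+HMD, over 8 genes of which 0 were at 0 throughout. Striatal markers summed to 34.0 to 43.7, 39.9 to 57.0 and 42.3 to 43.1 FPKM in the same order, and these sums overlapped between all groups. The overlap did not hold for each gene. Drd2 lay at 0.751 to 0.918 FPKM in Con, 2.06 to 3.36 FPKM in HMD and 0.97 to 1.15 FPKM in Bet+HMD. Penk lay at 6.61 to 10.1, 11.7 to 19.2 and 8.68 to 11.1 FPKM. The other striatal markers overlapped between Con and HMD. Haemoglobin and other blood genes summed to 99.8 to 148, 149 to 233 and 72.2 to 122 FPKM. In HMD replicates 1, 2 and 3 the thalamic markers summed to 142, 64.7 and 78.2 FPKM. The members summed to 80.0, 88.7 and 147 FPKM in the same order. The part of these in the lower immediate early genes of HMD was not tested.

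Markers of the hippocampus itself were present in every library. Dentate granule cell markers, which include Prox1, summed to 66.6 to 81.3 FPKM in Con, 73.1 to 81.8 FPKM in HMD and 68.9 to 70.9 FPKM in Bet+HMD. CA1 markers summed to 64.4 to 94.7, 64.8 to 87.8 and 64.6 to 66.4 FPKM. CA3 markers summed to 60.3 to 68.6, 53.8 to 74.9 and 33.3 to 35.4 FPKM, the sum being lower in all Bet+HMD libraries. Much of this was Bok, at 8.58 to 9.99 FPKM in Bet+HMD and 25.4 to 36.3 FPKM in the other libraries. Cpne4 was lower too. Grik4, at 8.15 to 8.42 FPKM in Bet+HMD and 6.89 to 9.97 FPKM in the others, overlapped, as did Iyd. General neuronal markers summed to 872 to 1002, 919 to 1072 and 814 to 818 FPKM. The lower sum in Bet+HMD did not hold for each gene. Named after their values were seen, Slc17a7 lay at 166 to 174 FPKM in Bet+HMD and 207 to 260 FPKM in the other libraries, whereas Rbfox3 lay at 38.9 to 40.9 FPKM in Bet+HMD and 23.1 to 38.8 FPKM in the others. The sum of neocortical markers was higher in all Bet+HMD libraries, at 34.3 to 42.7, 34.3 to 43.3 and 51.2 to 51.9 FPKM. Of the glia and vessels, astrocyte markers summed to 228 to 235, 227 to 248 and 195 to 196 FPKM, microglial ones to 69.4 to 85.9, 60.3 to 71.9 and 59.7 to 63.4 FPKM, endothelial ones to 55.8 to 63.9, 52.5 to 59.6 and 43.2 to 45.9 FPKM, and oligodendrocyte ones to 605 to 1032, 675 to 923 and 681 to 689 FPKM. Choroid plexus markers, led by Ttr, summed to 769.9 to 3201, 866 to 2574 and 935 to 1209.6 FPKM. Their part in the differences of Bet+HMD was not tested.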

How the data were processed

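Hippocampal RNA was sequenced in 9 samples. Per the submitters' processing notes the genome was mm10, with HISAT2 2.1.0 and featureCounts 1.5.0-p3, and the study's methods give ribosomal RNA depletion and stranded paired-end libraries. The strand setting of the counting is not given in the sources used here. The authors deposited FPKM per gene in 2 tables, together with gene length in bases (another unit) and position. FPKM times gene length and library size gave whole reads (within 0.01) for all values, so depth was known. Intervals from reads cover counting error only. Groups came from the titles. The columns with the prefix COL were read as Con by elimination, so this match is inferred, and 0 columns belonged to other samples.

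Tests were made within a table. The deposited values are FPKM, so limma 3.58.1 (R 4.3.3, empirical Bayes with an intensity trend) took the place of the study's count-based tools, and the recovered reads entered voom as an alternative. It modelled log2(FPKM + 1) in the samples of each comparison, for genes with a mean of at least 1 FPKM, with two-sided p-values adjusted by Benjamini-Hochberg over all genes tested and a threshold of 0.05. The fitting code was tested on simulated data. Alternatives were a pseudocount of 0.1, no filter, a filter at 5 FPKM, TPM, quantile normalization, median centring, no trend, all 3 groups in one fit, voom on recovered reads, a replicate block, the later table, and leaving out each library. Members and lists were chosen with earlier results of these data known. Beside the members, at most 4 genes of a list with the smallest p per comparison and the 8 genes most like the members were named. Grik5 is singled out among them after its values were seen. Egr3, Jun, Nr4a3, Per1, the CA3 genes and, as striatal markers, Drd2 and Penk were also named after their values were seen. Promoters are from RefSeq, GRCm38.p6, and gene models from GENCODE M21 on GRCm38. Coordinates are as the tables give them. Same-numbered samples are different animals.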

Additional observations from a re-analysis of the deposited data

How the results depend on the processing

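HMD against Con kept 0 called members under all 17 alternatives. For Bet+HMD against HMD the 4 called members became 1 with a filter at 5 FPKM, where fewer members were tested, and 2 to 7 when single libraries were left out (7 without HMD replicate 3, 2 without Bet+HMD replicate 1 or 3). For Bet+HMD against Con the 4 became 2 without a filter, in TPM and with all 3 groups in one fit, and 2 to 7 without single libraries (7 without Con replicate 3, 2 without each Bet+HMD replicate). Under quantile normalization 6 and 5 were called, where 47% and 38.5% of all genes were. The share of all genes called was 48.9% without HMD replicate 3 and 45.6% without Con replicate 3. In Bet+HMD against HMD it was 55.2% with a filter at 5 FPKM and 35.3% to 35.9% without single Bet+HMD libraries. In Bet+HMD against Con it was 18.8% without a filter, 39.7% in TPM and 39.5% with all 3 groups in one fit. Without single Bet+HMD libraries it was 24.4% to 25.3% in that comparison. The cause was not tested. The log2 fold change of Egr1 in Bet+HMD against Con turned to 0.0326 in TPM and 0.0650 under quantile normalization, and ranged from -0.465 to 0.0457 without single libraries. That of Nr4a1 turned to 0.136 and 0.103, and ranged from -0.17 to 0.0911, both reversals without a library being that without Con replicate 1. The pooled SD of the library medians was 0.47 in HMD against Con, 0.25 in Bet+HMD against HMD and 0.40 in Bet+HMD against Con. No alternative moved a median of the members by more than that. The medians themselves were -0.69, 0.24 and -0.56 in the same order, so this limit was wide and the check is weak.

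Same-numbered Con and HMD samples had deviations that correlated at -0.06, 0.35 and 0.32 across genes in the earlier table. Con and HMD samples with unlike numbers correlated at -0.39 to 0.08. Replicates 2 and 3 were thus more alike across Con and HMD than unlike numbers were, and the reason was not tested. The samples are different animals, so the numbers were not taken to pair them. With a replicate block 0, 4 and 4 members were called in HMD against Con, Bet+HMD against HMD and Bet+HMD against Con. There 0%, 41.1% and 28.8% of all genes were called. The signalling genes called went from 14 to 9 in Bet+HMD against HMD and from 15 to 6 in Bet+HMD against Con. Without 1 library an arm of 2 remains. Depth limits Egr2 most, with 17 reads in one HMD library.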
